A study of Mus musculus with 4 samples.

Results

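Lymphocytes of the mouse renal cortex were chosen by their transcripts from single-cell libraries, and 275 of 37737 barcodes that passed the filters were kept. A barcode was a member when it held at least 2 unique molecular identifiers (UMIs, each counting 1 captured transcript) of Cd3d, Cd3e, Cd3g, Cd79a, Cd79b and Nkg7 together, at least 1 UMI of the pan-leukocyte gene Ptprc, and at most 1 UMI of C1qa, C1qb, Slc34a1 and Slc12a1 together, which mark macrophages, the proximal tubule and the thick ascending limb. It also needed at least 300 detected genes and at most 50% of its UMIs from mitochondrial genes. Members were called T cells where they had a Cd3 UMI and no Cd79 UMI, B cells where they had Cd79 without Cd3 or Nkg7, and NK cells where they had Nkg7 alone. The values of these genes fixed the membership and are a description.

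The study followed mice that lack the transcription factor TFEB, a regulator of lysosomal genes, in proximal tubule epithelial cells. Young mice (6 weeks) and aged mice (24 months), each either Tfeb fl/fl controls or Tfeb fl/fl KAP, gave 4 conditions. Where 4 values are given in a row, the young control comes first, followed by young KAP, the aged control and aged KAP. All mice were male and carried both floxed Tfeb alleles. In the KAP mice, Cre recombinase was driven by the kidney androgen-regulated protein promoter, which is active in proximal tubules and depends on androgen, so the lymphocytes themselves were not the target of the deletion. Cortex tissue of 2 or 3 PBS-perfused mice was pooled into 1 library per condition. No comparison therefore has a replicate, no test across mice exists, and every interval covers counting error only.

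T cells recognise antigen through a receptor that signals through the CD3 chains. Naive T cells circulate between blood and lymphoid organs with the help of the receptors CCR7 and S1PR1, whereas effector and memory T cells enter tissues, secrete chemokines and carry granzymes, the proteases of cytotoxic granules. B cells recognise antigen through a surface immunoglobulin that signals through the CD79 chains, present antigen on MHC class II, and can switch from IgM and IgD to other isotypes or become antibody-secreting plasma cells. NK cells share the cytotoxic granules of T cells but lack the T cell receptor. In the healthy kidney, lymphocytes are a small resident population of the interstitium.

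The depth of the libraries was 194747936, 155327520, 125729484 and 135792884 UMIs over 16945, 12685, 8358 and 10097 barcodes. Of these, 13374, 9905, 6576 and 7882 barcodes passed the filters, and 50, 76, 77 and 72 were lymphocytes. Barcode sequences found in more than 1 library were few, between 27 and 57 for a pair of libraries. Among the members, 0, 1, 2 and 0 had a barcode that also occurred in another library, and none of those was a lymphocyte there.

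The name lymphocyte was checked against identity genes that the rule did not use, 13 for T cells, 11 for B cells and 11 for NK cells. All 26 NK-gated cells had at least 2 UMIs of their identity genes, as did 101 of 119 T-gated and 113 of 123 B-gated cells. Most of the exceptions carried genes of other cells. Among T-gated barcodes, 17 held 10 or more UMIs of the neutrophil genes S100a8 and S100a9, 4, 8, 1 and 4 in the libraries, and all 17 lacked Cd3e and Cd3g and had entered through Cd3d. Among barcodes chosen by at least 20 UMIs of S100a8 and S100a9, 47.1, 25.4, 25.0 and 25.5% had a UMI of Cd3d and none had one of Cd3e. Among B-gated barcodes, 7 held at least 20 UMIs of Aqp2, the water channel of the collecting duct. They lacked Cd79a, entered through Cd79b, and held 31.2, 40.2, 27.6 and 49.9% of all UMIs summed over B-gated cells. The plot of identity genes against depth shows both kinds apart from the other members.

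**Figure D1:**
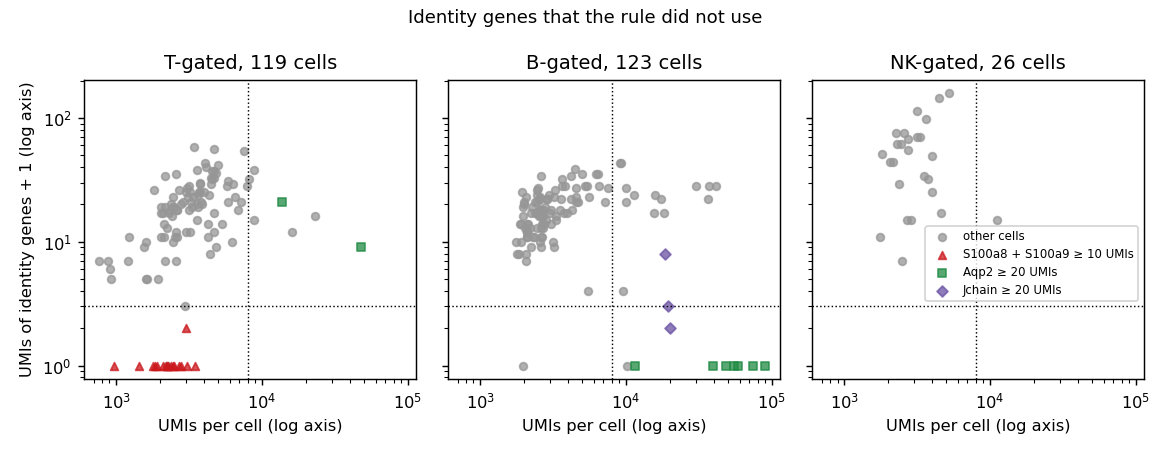
UMIs of identity genes not used by the rule (vertical log axis, with 1 added) against UMIs per cell (horizontal log axis) for the T-gated, B-gated and NK-gated barcodes of all 4 libraries; dotted lines mark 8000 UMIs and 2 identity UMIs. The 17 T-gated barcodes with neutrophil genes lie at or near 0 identity UMIs, and the 7 B-gated barcodes with Aqp2 lie at 0 with more than 8000 UMIs.

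Because of these barcodes, results are given for all members and for supported members, a selection made after the data were seen. Supported members had at least 2 UMIs of identity genes, under 10 UMIs of S100a8 and S100a9, at most 8000 UMIs in all and under 20 UMIs of Jchain. They numbered 39, 54, 64 and 59, in all 216 of 275. Supported T cells numbered 14, 18, 38 and 24, with medians of 2880, 3729, 3116.5 and 2885.5 UMIs per cell, and supported B cells numbered 20, 31, 22 and 24, with medians of 2585, 2600, 3695.5 and 2420 UMIs. Near the thresholds, 5, 10, 0 and 10 members had exactly 2 UMIs of the 6 lymphocyte genes, and 26, 22, 18 and 22 barcodes that met the other conditions had 1. A further 24, 52, 15 and 12 barcodes were outside only for want of a Ptprc UMI. Scrublet, which scores likely doublets, marked 7, 8, 6 and 10 members.

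Lymphocytes were 0.374% (95% interval 0.278 to 0.493), 0.767% (0.605 to 0.959), 1.17% and 0.913% of the barcodes. The young Tfeb fl/fl library was the lowest, and its interval did not reach those of the others. The share in aged Tfeb fl/fl was 3.13-fold that in young Tfeb fl/fl (log2 ratio 1.65, interval 1.11 to 2.19). In Tfeb fl/fl KAP mice the aged share was 1.19-fold the young one, with an interval of the log2 ratio from -0.23 to 0.74. Young Tfeb fl/fl KAP had 2.05-fold the share of young Tfeb fl/fl (log2 ratio 1.04, 0.50 to 1.58), and aged Tfeb fl/fl KAP had 0.780-fold that of aged Tfeb fl/fl (log2 ratio -0.36, -0.84 to 0.12). These ratios share libraries, and the low share of young Tfeb fl/fl enters both of the larger ones.

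A share of barcodes depends on how many epithelial cells the digestion released. Among barcodes with a Ptprc UMI, lymphocytes made up 8.0, 15.1, 16.5 and 12.7%. The age ratio in Tfeb fl/fl was then 2.07-fold and the young genotype ratio 1.89-fold, while the age ratio in Tfeb fl/fl KAP turned to 0.837-fold (interval of the log2 ratio -0.74 to 0.23). Among supported lymphocytes the shares of all barcodes were 0.292, 0.545, 0.973 and 0.749%, with an age ratio of 3.34-fold in Tfeb fl/fl and 1.37-fold in Tfeb fl/fl KAP (interval of the log2 ratio -0.10 to 1.02). Young Tfeb fl/fl stayed the lowest library with each of these denominators. Among barcodes without a UMI of the proximal tubule gene Slc34a1, aged Tfeb fl/fl KAP had 0.578-fold the lymphocyte share of aged Tfeb fl/fl (log2 ratio -0.79, -1.31 to -0.27), and among barcodes with at least 1000 genes 0.663-fold (-0.59, -1.12 to -0.07). Both intervals leave out 0, unlike that over all barcodes.

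**Figure D2:**
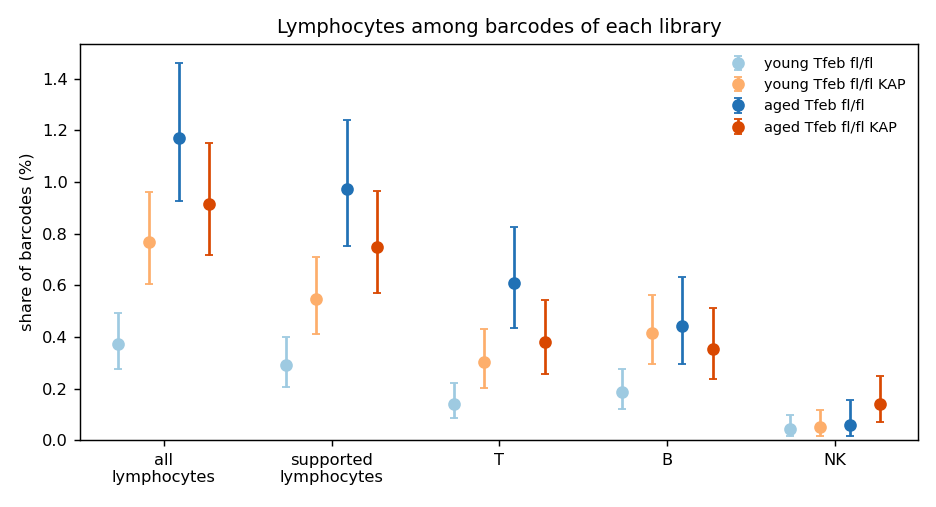
Share of barcodes (vertical axis, percent) that were lymphocytes, supported lymphocytes, T, B or NK cells in each of the 4 libraries; points are shares and bars are exact 95% intervals for counting error. The young Tfeb fl/fl library is lowest for all lymphocytes at 0.374%, and aged Tfeb fl/fl is highest at 1.17%.

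T cells numbered 19, 30, 40 and 30, B cells 25, 41, 29 and 28, and NK cells 6, 5, 4 and 11, while 0, 0, 4 and 3 members mixed the marker genes. T cells were thus 38.0, 39.5, 51.9 and 41.7% of the lymphocytes, with intervals that overlapped between all libraries (24.7 to 52.8% in young Tfeb fl/fl and 40.3 to 63.5% in aged Tfeb fl/fl). Among supported lymphocytes, which leave out the barcodes with neutrophil genes, they were 35.9, 33.3, 59.4 and 40.7%. With an 80% share of marker UMIs for a type, aged Tfeb fl/fl no longer had the highest share of T cells, as given under the dependence on processing. That split counts Nkg7 UMIs in the total, so by construction T cells with many Nkg7 UMIs fall outside the T type. Of the T cells, 11 of 19, 10 of 30, 37 of 40 and 16 of 30 had an Nkg7 UMI. B cells were 50, 53.9, 37.7 and 38.9%. Between young and aged Tfeb fl/fl, T cells were 4.28-fold more frequent among barcodes (log2 ratio 2.10, 1.28 to 2.97) and B cells 2.36-fold (1.24, 0.42 to 2.07). Among barcodes with a Ptprc UMI these were 2.82-fold and 1.56-fold, and the interval for B cells then included 0 (log2 ratio 0.64, -0.18 to 1.47). In Tfeb fl/fl KAP the age ratio among all barcodes was 1.26-fold for T cells (log2 ratio 0.33, -0.45 to 1.11). For B cells it was 0.858-fold (-0.22, -0.97 to 0.51). NK cells were too few in each library for a comparison.

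The members also varied among themselves within a library. Among supported T cells, 5 of 14, 2 of 18, 17 of 38 and 10 of 24 had a UMI of Cd8a or Cd8b1, the coreceptor of cytotoxic T cells. Cd4, the coreceptor of helper T cells, was found in 0, 4, 6 and 5 cells, and Foxp3, the transcription factor of regulatory T cells, in 0, 1, 1 and 1. A UMI of neither coreceptor was seen in 9, 12, 15 and 10 cells, which at these depths does not show that the cells lack both. Nkg7, a granule gene that is part of the rule, was found in 71.4, 44.4, 94.7 and 58.3% of supported T cells. A T cell with a single Cd3 UMI could enter only with Nkg7, so cells with cytotoxic granules entered more easily in every library.

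Levels of genes were compared as CPM, the UMIs of a gene summed over the cells of a type in a library and scaled to a total of 1000000. A gene was counted as higher or lower when it was at least 2-fold apart, among genes with a mean of at least 100 CPM and at least 30 UMIs in the pair. Where a library had 0 UMIs, the ratio was taken against a floor of 3 UMIs in that library. Such a ratio is not a bound, since the exact interval reaches closer to no change. Types were to be compared only with at least 20 cells in each library. Young Tfeb fl/fl had 19 T cells, and comparisons of T cells use a minimum of 14 cells that was chosen after the data were seen. All gene values from here on are for supported cells unless stated.

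Gzmk was among the leading genes that were higher in the T cells of both aged libraries, and it was not detected in either young library. It encodes granzyme K, a granule protease of effector memory T cells. It had 0, 0, 62 and 11 UMIs, in 0 of 14, 0 of 18, 20 of 38 and 7 of 24 T cells, or 0, 0, 492 and 134 CPM. Both young libraries had no Gzmk cell (exact 95% intervals up to 23.2 and 18.5% of cells), whereas aged Tfeb fl/fl had 52.6% (35.8 to 69.0) and aged Tfeb fl/fl KAP 29.2% (12.6 to 51.1). Against the floor, the aged level was 7.47-fold higher in Tfeb fl/fl and 3.06-fold higher in Tfeb fl/fl KAP. The exact interval in Tfeb fl/fl KAP starts at a log2 ratio of 1.07, where the floor gave 1.61. Among the aged libraries, Tfeb fl/fl KAP was lower than Tfeb fl/fl by 3.67-fold (log2 ratio -1.88, -2.95 to -0.94). No supported B cell, a type that should lack the gene, had a Gzmk UMI in any library. With all T-gated cells, 1 of 30 cells in young Tfeb fl/fl KAP also had Gzmk, and 20 of 40 and 8 of 30 cells had it in the aged libraries.

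The other genes of the Gzmk cells were compared with those of the remaining T cells of their library. Of the 20 in aged Tfeb fl/fl, 12 had a UMI of Cd8a or Cd8b1 and 4 of Cd4, against 5 and 2 of the 18 other T cells. Ccl5, a chemokine of effector T cells, was found in 20 of 20 and 13 of 18, and Cxcr6, a chemokine receptor of T cells that stay in tissues, in 11 and 14. Pdcd1, the gene of the inhibitory receptor PD-1, was found in 10 of these 20 and in 3 of the 18 other T cells. Tox, a transcription factor of chronically stimulated T cells, was found in 14 and 6, and Ctla4, an inhibitory receptor, in 7 and 4. Of the 7 Gzmk cells in aged Tfeb fl/fl KAP, 4 had Cd8a or Cd8b1 and 2 had Cd4, against 6 and 3 of the 17 others. Ccl5 was found in 7 of 7 and 7 of 17, Pdcd1 in 3 and 0, Ctla4 in 5 and 3, Tox in 3 and 5, and Cxcr6 in 3 and 7.

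Gzma, which encodes granzyme A, had 81, 68, 14 and 0 UMIs in the supported T cells, in 2, 1, 3 and 0 cells, so that 3 cells held the whole level of the young libraries. The cell in young Tfeb fl/fl KAP had 68 Gzma UMIs, beside 39 UMIs of the 13 T identity genes, 14 of Cd3 and 3 of the other 10 NK identity genes. Of the 2 in young Tfeb fl/fl, 1 had 49 Gzma, 2 T identity and 22 other NK identity UMIs, and the other had 32, 28 and 17. Scrublet marked both as likely doublets and not the cell in Tfeb fl/fl KAP. The aged level was 16.0-fold lower in Tfeb fl/fl and, against the floor, 27.2-fold lower in Tfeb fl/fl KAP.

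The T cell gate also held cells with more UMIs of these 10 NK identity genes, Gzma left out, than of the T identity genes. They are called cells with mainly NK genes here, a selection made after the data were seen that uses Klrk1 and Klre1. They were 1 of 14, 0 of 18, 5 of 38 and 0 of 24 supported T cells, and the 10 genes summed to 2261, 512, 2341 and 1048 CPM over all supported T cells. Without them Gzma had 32, 68, 14 and 0 UMIs and was 5.86-fold lower with age in Tfeb fl/fl (log2 ratio -2.55, -3.57 to -1.60) and as before in Tfeb fl/fl KAP, in each case against 1 young cell. Gzmk had 60 and 11 UMIs in the aged libraries without them. NK cells themselves had 176, 78, 191 and 327 Gzma UMIs and no Gzmk UMI in any of the 4 libraries.

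The promoters of both granzyme genes are shown because the genes lie near each other on 1 chromosome while Gzmk was found in T cells and not in NK cells and Gzma mostly in NK cells, and that of Il7r because it separated the genotypes. The sequences are from RefSeq (GRCm38.p6), from 250 bases before to 50 after the start, all on the minus strand and written 5′ to 3′. Capitals mark the core letters of RUNX sites, TGTGGT (reverse complement ACCACA), and the CACCC box of Krüppel-like factors (reverse complement GGGTG), searched on both strands. RUNX core letters occur in 16.8% and the CACCC box in 57.5% of 32851 promoters of this length. The windows are chr13:113180916-113181215 for Gzmk, chr13:113100932-113101231 for Gzma and chr15:9529827-9530126 for Il7r.
Gzmk: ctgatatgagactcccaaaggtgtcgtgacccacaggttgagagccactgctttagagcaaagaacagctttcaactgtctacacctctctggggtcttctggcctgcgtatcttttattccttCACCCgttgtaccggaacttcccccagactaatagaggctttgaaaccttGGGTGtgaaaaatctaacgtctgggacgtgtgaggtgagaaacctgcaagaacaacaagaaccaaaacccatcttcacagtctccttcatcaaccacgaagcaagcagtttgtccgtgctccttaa
Gzma: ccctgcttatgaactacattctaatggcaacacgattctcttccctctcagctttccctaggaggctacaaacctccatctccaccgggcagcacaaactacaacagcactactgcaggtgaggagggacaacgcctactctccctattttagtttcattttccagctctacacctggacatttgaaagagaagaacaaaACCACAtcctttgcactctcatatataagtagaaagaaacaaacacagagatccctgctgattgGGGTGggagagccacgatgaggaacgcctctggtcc
Il7r: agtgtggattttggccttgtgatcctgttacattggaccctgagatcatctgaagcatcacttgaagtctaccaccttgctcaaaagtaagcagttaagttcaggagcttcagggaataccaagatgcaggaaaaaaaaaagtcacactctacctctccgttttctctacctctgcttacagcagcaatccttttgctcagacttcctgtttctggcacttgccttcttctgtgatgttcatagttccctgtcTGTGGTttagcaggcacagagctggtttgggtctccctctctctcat
The Gzmk window held 2 CACCC boxes and no RUNX core, the Gzma window 1 of each, and the Il7r window 1 RUNX core and no CACCC box. A match of letters is a description and not a bound site.

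With age, 67 genes were at least 2-fold higher in the T cells of Tfeb fl/fl (7.72% of 868 genes) and 39 lower (4.49%), and in Tfeb fl/fl KAP 28 were higher (4.61% of 607) and 41 lower (6.75%). In both genotypes, 25 of the 1437 genes past the same minimum over the 4 libraries were higher (1.74%) and 19 lower (1.32%). With the minimum within each pair, 5 of 573 were higher (0.873%), among them Aplp2 and Ccl5, and 7 lower (1.22%), which were Gzma, Ifng, Egr1, Gadd45b and 3 mitochondrial genes. Gzmk had fewer than 30 UMIs in the pair of Tfeb fl/fl KAP. Besides Gzmk, the higher genes included Aplp2, an amyloid precursor-like protein, with 2, 3, 44 and 29 UMIs, or 43.9, 43.8, 349 and 353 CPM. The aged level of Aplp2 was 7.95-fold that of the young one in Tfeb fl/fl and 8.06-fold in Tfeb fl/fl KAP, and the genotypes differed by a log2 ratio of 0.02 at 24 months (-0.71 to 0.73). With all T-gated cells the log2 ratios of Aplp2 with age were 0.88 and 1.78. Stat4, which carries the signal of interleukin-12, had 4, 5, 28 and 18 UMIs and log2 ratios of 1.34 (-0.18 to 3.31) and 1.59 (0.10 to 3.37). Crbn, the substrate receptor of a ubiquitin ligase, had 4, 1, 30 and 14 UMIs. The immediate early family member Ier5l had 5, 0, 44 and 22. Bod1l, Ccdc88c, Zfp652, Tsc22d4 and Hipk1 completed the 10 leading genes. With all T-gated cells of Tfeb fl/fl, 116 of 1317 genes were at least 2-fold higher with age and 71 lower. In Tfeb fl/fl KAP these were 117 and 117 of 1128.

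Ccl5 had 298, 225, 1985 and 593 UMIs in T cells, or 6543, 3288, 15751 and 7227 CPM, and was found in 11 of 14, 6 of 18, 33 of 38 and 14 of 24 cells. The aged level was 2.41-fold higher in Tfeb fl/fl and 2.20-fold higher in Tfeb fl/fl KAP. Cxcr6 was found in 5 of 14, 3 of 18, 25 of 38 and 10 of 24 cells. Its log2 ratio with age was 1.29 (0.40 to 2.30) in Tfeb fl/fl and 0.84 (-0.15 to 1.92) in Tfeb fl/fl KAP. Ctla4 had 5, 4, 30 and 18 UMIs, with log2 ratios of 1.12 (-0.26 to 2.84) and 1.91 (0.31 to 3.93), the first with an interval that includes 0 and with a value of -0.18 in all T-gated cells. In supported B cells, Ctla4 had a UMI in 0, 1, 2 and 1 cells.

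Genes that were lower with age in both genotypes included, besides Gzma, Trdc, the constant chain of the gamma delta T cell receptor. Trdc had 8, 19, 2 and 3 UMIs in 1, 2, 2 and 1 cells, and its log2 ratio in all T-gated cells of Tfeb fl/fl KAP turned to 0.79 when each cell was thinned to 1000 UMIs. Ifng, the gene of interferon gamma, had 21, 35, 15 and 7 UMIs, of which 19 and 31 in the young libraries were in 1 cell each, and it was found in more cells of aged Tfeb fl/fl (9 of 38) than of any other library. The immediate early gene Egr1 had 549, 395, 143 and 134 CPM and the stress gene Gadd45b 615, 351, 238 and 110 CPM. Both turned direction in Tfeb fl/fl KAP with all T-gated cells, to log2 ratios of 0.79 and 1.01. Ccr7, the homing receptor for lymph nodes, had 4, 21, 4 and 10 UMIs, lower with age by log2 -1.47 (-3.89 to 0.96) and -1.33 (-2.58 to -0.18). Dok2, Atp1b1, Dap and March7 were the others. Umod, a gene of the thick ascending limb, had 329, 468, 95.2 and 60.9 CPM in T cells. Of the mitochondrial genes, 10 of 11 in Tfeb fl/fl and 9 of 10 in Tfeb fl/fl KAP were lower in the aged libraries (median log2 ratios -1.33 and -0.69). Of all genes tested, 47.4 and 57.5% were lower. The part of tubule or mitochondrial transcripts in these results was not tested.

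The genotypes were compared at each age, with the young libraries and the aged libraries as separate pairs. At 24 months, 18 genes were at least 2-fold higher (1.78% of 1009) and 101 lower (10.0%) in Tfeb fl/fl KAP, with a median log2 ratio of all genes of -0.16. At 6 weeks, 17 were higher (3.62% of 470) and 23 lower (4.89%). At both ages, 8 of the 1437 genes past the minimum over the 4 libraries were higher (0.557%) and 42 lower (2.92%), but a gene could pass that minimum through 1 pair alone. With the minimum set within each pair, a choice made after the data were seen, 1 of 463 genes was higher at both ages (0.216%) and 3 lower (0.648%). These were Il7r on the one side and Xcl1, Klrd1 and Ccl4 on the other, the last 2 named after their values were seen. With all T-gated cells, 94 of 1552 genes were at least 2-fold higher and 191 lower at 24 months, and 44 and 75 of 855 at 6 weeks. These comparisons use the same libraries as those of age, so the values of a library enter both.

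Il7r, the interleukin-7 receptor chain that naive and memory T cells need to survive, led the higher genes. It had 0, 54, 40 and 112 UMIs, in 0 of 14, 13 of 18, 15 of 38 and 16 of 24 T cells. Both Tfeb fl/fl KAP libraries, with 72.2 and 66.7% of cells, stood above the Tfeb fl/fl library of the same age. The level was 4.30-fold higher in aged Tfeb fl/fl KAP (log2 ratio 2.10, 1.57 to 2.66) and, against the floor, 11.98-fold higher in young Tfeb fl/fl KAP. In B cells, 1 of 31 cells in young Tfeb fl/fl KAP had a UMI of Il7r and none in the other libraries. With all T-gated cells, young Tfeb fl/fl had 2 UMIs in 1 of 19 cells, and the log2 ratios were 2.31 and 4.28. Without the cells with mainly NK genes, the log2 ratios of Il7r were 2.27 and, against the floor, 3.49.

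S1pr1, the receptor by which T cells leave tissues along a lipid gradient, had 9, 32, 7 and 18 UMIs. It was found in 5 of 14, 13 of 18, 5 of 38 and 7 of 24 cells, with log2 ratios of 1.98 (0.65 to 3.48) at 24 months and 1.24 (0.14 to 2.50) at 6 weeks. Ccr7 had log2 ratios of 1.94 (0.15 to 4.07) and 1.81 (0.24 to 3.81), and Igfbp4, an insulin-like growth factor binding protein found in naive T cells, of 1.20 (-0.45 to 2.98) and 1.66 (0.07 to 3.68). Rgs10, Prkca, Selenot and Utrn were the remaining 4 of the 8 genes. Of the list of 10 genes of naive and circulating T cells, 5 of 5 tested were higher in aged Tfeb fl/fl KAP, 3 of them at least 2-fold, with a median of 1.20 beside -0.16 for all genes tested, of which 38.1% were higher and 1.78% at least 2-fold higher. In young Tfeb fl/fl KAP 6 of 6 tested were higher, 2 of them at least 2-fold, with a median of 0.24 beside 0.03 for all genes tested, of which 52.6% were higher and 3.62% at least 2-fold higher. The list was chosen with earlier results of these data known, so these counts are a description. A gene could also pass the minimum through the higher library alone, as Il7r did at 6 weeks. The transcription factors Lef1 and Tcf7 had log2 ratios of 1.20 and 1.28 at 24 months. At 6 weeks they had 0.15 and 0.25, with intervals that included 0.

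**Figure D3:**
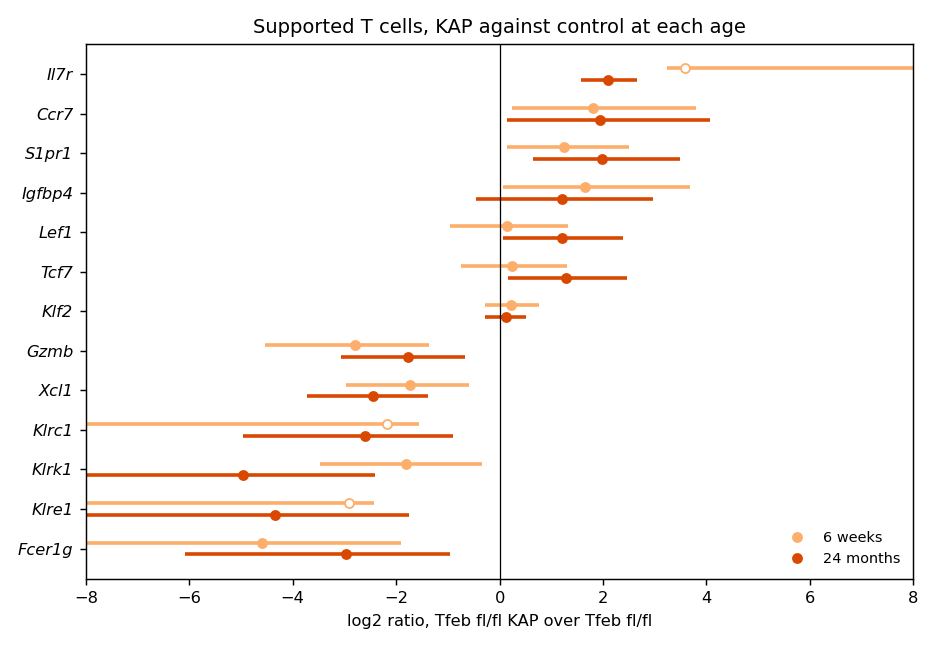
Log2 ratios of Tfeb fl/fl KAP over Tfeb fl/fl (horizontal axis) for 7 genes of naive and circulating cells and 6 cytotoxic or NK receptor genes in supported T cells at 6 weeks and 24 months; bars are exact 95% intervals for counting error, which run to the edge where unbounded or wider, and open points are against a library at 0, set at the floor. Il7r, Ccr7 and S1pr1 are above 0 at both ages with intervals that leave out 0, and Klrk1 and Gzmb are below 0 at both ages.

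Among the genes named because they were at least 2-fold lower in Tfeb fl/fl KAP at both ages were 3 genes of receptors that NK cells also carry, with few UMIs behind them in the KAP libraries. They had at least 30 UMIs in the pair at 24 months and not at 6 weeks. Klrk1, the activating receptor NKG2D, had 14, 6, 48 and 1 UMIs in 4 of 14, 3 of 18, 15 of 38 and 1 of 24 T cells, with log2 ratios of -4.97 (-10.30 to -2.42) at 24 months and -1.81 (-3.48 to -0.34) at 6 weeks. Klre1 had 15, 0, 31 and 1 UMIs and the inhibitory receptor gene Klrc1 had 9, 0, 28 and 3. In both Tfeb fl/fl libraries about as many cells had Klrc1, 5 of 14 and 14 of 38, as had Klre1, 5 of 14 and 12 of 38. No supported B cell had a UMI of Klrk1 or Klre1. Among NK cells all 11 of aged Tfeb fl/fl KAP had Klrk1, so the gene itself was detected in that library. Without the cells with mainly NK genes, 13 cells were left in young Tfeb fl/fl. The log2 ratios of Klrk1 were then -4.05 at 24 months and -1.68 (-3.38 to -0.16) at 6 weeks. Those of Klrc1 were -2.46 and, against the floor, -2.27, and those of Xcl1 were -2.08 and -1.75.

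Other genes named by the same rule included effector genes, of which Xcl1 alone had at least 30 UMIs in both pairs among those described here. Gzmb, the gene of granzyme B, had 23, 5, 42 and 8 UMIs, with log2 ratios of -1.77 (-3.08 to -0.66) and -2.79 (-4.54 to -1.36). Without the cells with mainly NK genes, Gzmb was at -1.05 (-2.42 to 0.17) at 24 months, with an interval that includes 0, and had 10 and 5 UMIs at 6 weeks. Xcl1, a chemokine that attracts dendritic cells, was found in 9 of 14, 3 of 18, 18 of 38 and 5 of 24 cells. Its log2 ratios were -2.45 (-3.72 to -1.39) and -1.72 (-2.97 to -0.59). Nr4a2, a nuclear receptor induced by T cell receptor signals, had 12, 2, 67 and 13 UMIs. Fcer1g, a signalling adaptor, had 16, 1, 24 and 2, of which 20 of the 24 were in 1 cell, and was left with 5, 1, 2 and 2 without the cells with mainly NK genes. Its log2 ratios of -2.97 at 24 months and -4.59 at 6 weeks went to 0.51 and -0.21 with all T-gated cells. Serpinb6b, an intracellular protease inhibitor, had 10, 1, 27 and 1 UMIs in 4, 1, 13 and 1 cells. Of the list of 14 effector and memory genes, 1 of 6 tested was higher and 5 lower in aged Tfeb fl/fl KAP (median -1.07), where 38.1% of all genes tested were higher. In young Tfeb fl/fl KAP 1 of 5 was higher and 4 lower (median -0.99), where 52.6% of all genes were higher.

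**Figure D4:**
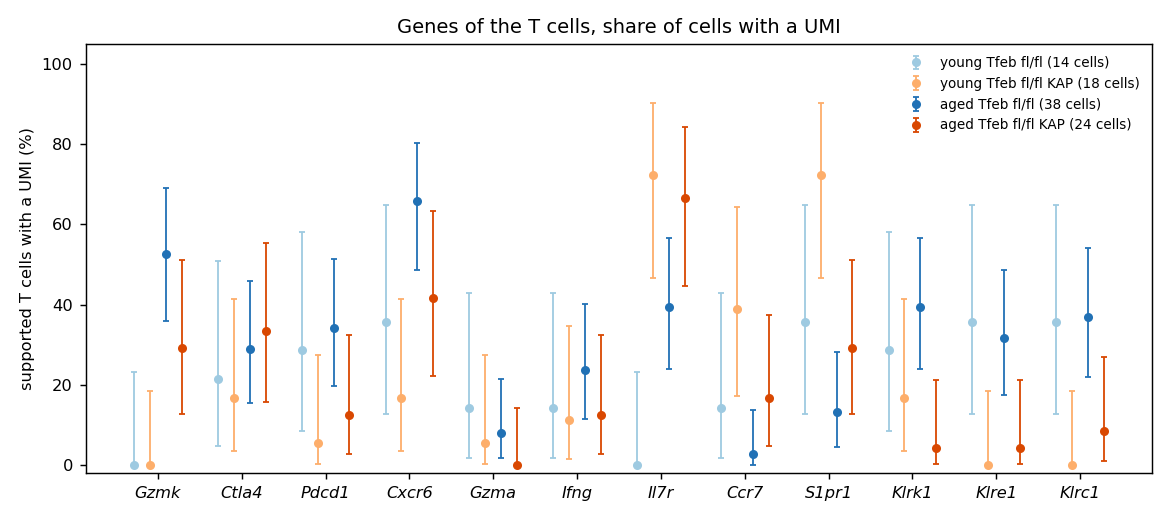
Share of supported T cells with at least 1 UMI (vertical axis, percent) for 12 genes in the 4 libraries of 14, 18, 38 and 24 cells; bars are exact 95% intervals for counting error. Gzmk is at 0 in both young libraries, Il7r is highest in the Tfeb fl/fl KAP libraries with 72.2 and 66.7%, and Klre1 and Klrc1 are highest in the Tfeb fl/fl libraries.

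Ribosomal protein genes moved with the genotype in the T cells. Of 76 tested, 75 were higher in aged Tfeb fl/fl KAP, with a median of 0.45, and of 75 tested 73 were higher in young Tfeb fl/fl KAP, with a median of 0.53. Of all genes tested 38.1 and 52.6% were higher, with medians of -0.16 and 0.03. They made up 20.4, 29.2, 21.5 and 29.8% of the UMIs of T cells, so that both Tfeb fl/fl KAP libraries were above both Tfeb fl/fl libraries. In B cells the shares were 22.0, 22.7, 25.1 and 25.6% and the median ratios 0.04 at both ages.

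Tubule transcripts in T cells also differed between the libraries. The 14 proximal tubule genes summed to 1142, 1257, 1873 and 1316 CPM and the 9 genes of distal segments to 988, 789, 460 and 256 CPM. Kap, an abundant transcript of the proximal tubule, had 20, 1, 86 and 26 UMIs and was lower in Tfeb fl/fl KAP at both ages. The 6 endothelial genes summed to 681, 73.1, 159 and 926 CPM. Neutrophil genes had 0, 0, 3 and 0 UMIs and 9 macrophage genes 0, 2, 4 and 3 UMIs, with the macrophage genes Csf1r, Adgre1, Cd68 and C1qc at 0 in all 4 libraries. The part of tubule and endothelial RNA in the T cell results was not tested.

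B cells had the genes of their kind in all libraries. Ms4a1, the gene of CD20, was found in 16 of 20, 23 of 31, 22 of 22 and 22 of 24 cells, and Ighm, the heavy chain of IgM, in 20, 30, 18 and 24. Igkc, the kappa light chain, was at 9587, 10449, 7596 and 10347 CPM, and 1, 2, 3 and 2 cells had more UMIs of lambda than of kappa chains. Ighd, the IgD chain of naive B cells, was found in 85.0, 64.5, 54.5 and 58.3% of cells.

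UMIs of switched isotypes were found in supported B cells of 1 library. A UMI of Ighg1, Ighg2b, Ighg2c, Ighg3 or Igha was found in 0 of 20, 0 of 31, 4 of 22 and 0 of 24 cells, with exact intervals up to 16.8, 11.2 and 14.2% where no cell had one and of 5.19 to 40.3% in aged Tfeb fl/fl. Ighg3 had 23 UMIs there, 21 of them in 1 cell, Ighg1 had 9 UMIs in 1 cell and Igha 4 in 1 cell. Of the 4 cells, 2 had only 2 UMIs each. Supported T cells, which should lack these genes and had similar depth, had none in any library. Tubule barcodes of the aged libraries also held such UMIs, since 3.71 and 8.83% of barcodes with at least 5 UMIs of Slc34a1 had a switched UMI, against 0.0898 and 0.485% in the young ones. Those barcodes had medians of 16387.5, 15328, 21492 and 17920 UMIs, and their summed switched level was 1.73 CPM in aged Tfeb fl/fl beside 437 CPM in its B cells. With all B-gated cells the numbers were 0 of 25, 1 of 41, 7 of 29 and 1 of 28.

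The 3 cells with at least 20 UMIs of Jchain, which joins IgA and IgM, were left out of the supported cells and carried transcripts of plasma cells. The cell in young Tfeb fl/fl KAP had 18461 UMIs, of which 1129 were Igkc, 309 Igha and 157 Jchain. In aged Tfeb fl/fl, 1 cell had 10365 Igkc, 1723 Ighm and 240 Jchain UMIs of 19493, and the other had 8992 Igkc, 2318 Igha and 991 Jchain UMIs of 20074. All 3 had Mzb1, a chaperone of antibody assembly, with 103, 46 and 57 UMIs, and none had Ms4a1. Scrublet marked all 3 as likely doublets.

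With age, 53 genes were at least 2-fold higher in the B cells of Tfeb fl/fl (8.56% of 619) and 31 lower (5.01%), with a median of all genes of 0.14. In Tfeb fl/fl KAP 15 were higher (2.38% of 630) and 27 lower (4.29%). The balance in Tfeb fl/fl turned with all B-gated cells, to 87 higher and 169 lower of 1639, and in Tfeb fl/fl KAP it was 72 and 153. In both genotypes 26 of 1353 genes past the minimum over the 4 libraries were higher (1.92%) and 13 lower (0.961%). With the minimum within each pair, 0 of 539 were higher and 6 lower (1.11%), 4 of them mitochondrial, so the higher genes named next had few UMIs in at least 1 pair. Ptpn22, a phosphatase that restrains antigen receptor signals, had 3, 1, 25 and 8 UMIs in 2 of 20, 1 of 31, 7 of 22 and 5 of 24 cells. Its log2 ratios were 2.34 (0.63 to 4.71) in Tfeb fl/fl and 3.60 (0.70 to 9.08) in Tfeb fl/fl KAP. Plek, a cytoskeletal protein of blood cells, had 2, 4, 19 and 7 UMIs. Cited2, a transcriptional coregulator, had 4, 4, 71 and 9, but 45 of the 71 were in 1 cell, and its log2 ratio in Tfeb fl/fl KAP was -0.07 with all B-gated cells. S100a6, a calcium-binding protein, had 0, 11, 16 and 29 UMIs in 0, 5, 2 and 4 cells, and its log2 ratio in Tfeb fl/fl KAP was 0.32 with all B-gated cells. Among lower genes, Ccl4 rested on single cells, with 52 of 53 UMIs of young Tfeb fl/fl KAP in 1 cell, and with all B-gated cells its log2 ratio in Tfeb fl/fl KAP was 0.58.

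Of the MHC class I genes, which present peptides on every nucleated cell, 4 of 4 tested were higher in aged Tfeb fl/fl (median 0.88) and 2 of 4 in aged Tfeb fl/fl KAP (median -0.01), where 60.1 and 53.3% of all genes tested were higher. B2m, the light chain of MHC class I, had 791, 634, 1530 and 880 CPM, and H2-K1 1295, 1574, 2284 and 1312 CPM. For both genes aged Tfeb fl/fl was the highest library. Their log2 ratios with age were 0.95 (0.45 to 1.47) and 0.82 (0.43 to 1.23) in Tfeb fl/fl, and 0.47 (-0.09 to 1.04) and -0.26 (-0.68 to 0.14) in Tfeb fl/fl KAP. With all B-gated cells the list medians were 0.57 and 0.17, and H2-K1 in Tfeb fl/fl KAP turned to 0.17.

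MHC class II genes had medians of 0.15 and 0.12, close to the medians of all genes tested, 0.14 and 0.03. Its invariant chain Cd74 was at 14282, 14690, 13345 and 15196 CPM. Of the genes of follicular B cells, 4 of 4 were lower in aged Tfeb fl/fl (median -1.21) and 2 of 4 in aged Tfeb fl/fl KAP (median 0.13). Of all genes tested, 39.9 and 46.7% were lower. Fcer2a, the low-affinity IgE receptor CD23, had 20, 24, 12 and 10 UMIs, Ighd 42, 43, 28 and 28, and Ccr7 25, 24, 19 and 19. The log2 ratios in Tfeb fl/fl were -1.46 (-2.62 to -0.35), -1.30 (-2.05 to -0.58) and -1.11 (-2.06 to -0.20). With all B-gated cells the follicular medians were -0.98 and 0.71, on 3 and 2 tested genes.

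Immediate early genes, which respond within minutes to antigen receptor signals and to tissue digestion, were higher in 11 of 11 in aged Tfeb fl/fl (median 0.43) and in 1 of 10 in aged Tfeb fl/fl KAP (median -0.49), again beside 60.1 and 53.3% of all genes. Nr4a1, a reporter of antigen receptor signals, had 21, 70, 59 and 15 UMIs in 7 of 20, 16 of 31, 19 of 22 and 7 of 24 cells. Jun had 6, 18, 26 and 4 UMIs. In both genes young Tfeb fl/fl KAP and aged Tfeb fl/fl were above the other two libraries. With all B-gated cells, 7 of 14 immediate early genes were higher with age in Tfeb fl/fl (median 0.15) and none of 14 in Tfeb fl/fl KAP (median -1.63). Of all genes tested in those cells, 42.4 and 53.3% were higher. Whether the genotypes differ in these lists was not tested, since each has 1 library at each age.

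**Figure D5:**
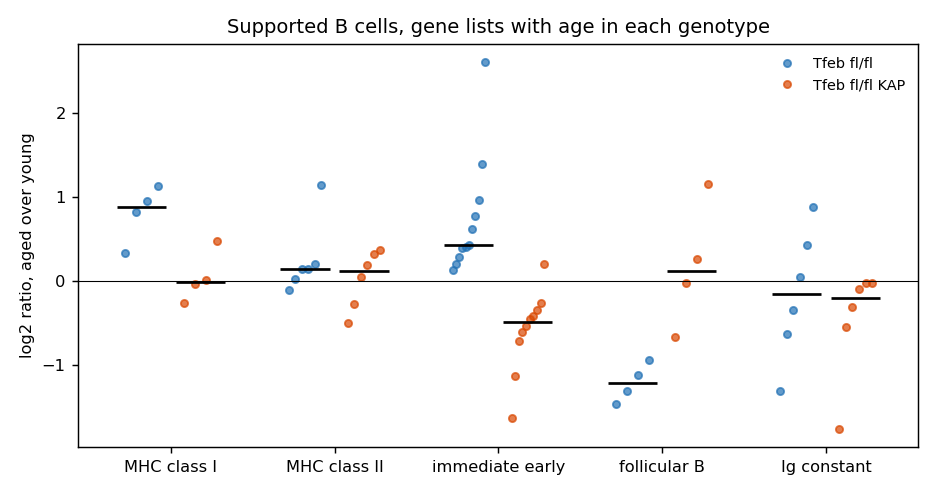
Log2 ratios of aged over young (vertical axis) in supported B cells for the tested genes of 5 lists, in Tfeb fl/fl and in Tfeb fl/fl KAP; each point is a gene and black lines are medians. Immediate early genes are above 0 in Tfeb fl/fl (11 of 11) and mostly below 0 in Tfeb fl/fl KAP (9 of 10), while MHC class II medians are 0.15 and 0.12.

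Between genotypes, 13 genes were at least 2-fold higher (2.03% of 641) and 44 lower (6.86%) in the B cells of aged Tfeb fl/fl KAP, and 22 higher (3.67% of 599) and 17 lower (2.84%) in those of young Tfeb fl/fl KAP. The balance at 24 months turned with all B-gated cells, to 153 higher and 70 lower of 1703, and at 6 weeks it was 108 and 38. At both ages 15 of 1353 were higher (1.11%) and 10 lower (0.739%), and with the minimum within each pair 1 of 528 was higher (0.189%) and 3 lower (0.568%). Gm42418, a locus that overlaps ribosomal RNA sequence, had 225, 39, 165 and 0 UMIs. The higher gene past the minimum within each pair was Nfkbia, with log2 ratios of 1.15 at 24 months and 1.74 at 6 weeks. The other higher genes over the 4 libraries were below that minimum in at least 1 pair. They included Hvcn1, a proton channel of B cells, with log2 ratios of 1.30 and 1.45, and Nr3c1, the glucocorticoid receptor, with 1.19 at both ages.

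Mitochondrial transcripts and genes of other cell types also differed between the libraries in B cells. All 11 mitochondrial genes were lower in aged libraries, with medians of -1.94 in Tfeb fl/fl and -0.83 in Tfeb fl/fl KAP. Of all genes tested, 39.9 and 46.7% were lower. Mitochondrial genes made up 12.2, 9.19, 3.75 and 6.14% of the UMIs. With all B-gated cells the median in Tfeb fl/fl KAP was 0.09. The 9 macrophage genes had 23, 37, 185 and 6 UMIs, nearly all from Apoe with 23, 37, 178 and 4, while Csf1r, Cd68, Lyz2 and Ms4a7 were at 0 in all 4 libraries. Of the 178, 83 were in 1 cell. The 6 dendritic cell genes had 0, 17, 0 and 1 UMIs, and 11 of the 17 were from Ccr9. The 14 proximal tubule genes summed to 2590, 1170, 1956 and 1445 CPM, the 9 genes of distal segments to 1421, 590.2, 503 and 316 CPM, and the 6 endothelial genes to 71.9, 87.4, 164 and 349 CPM. Fxyd2, a subunit of the sodium pump abundant in tubules, was lower in Tfeb fl/fl KAP at both ages, with log2 ratios of -1.81 and -1.41. The part of these transcripts in the B cell results was not tested.

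NK cells numbered 6, 5, 4 and 11 and are described without comparison. Ncr1, the activating receptor NKp46, was found in 5 of 6, 5 of 5, 3 of 4 and 10 of 11 cells, and Trac, the constant chain of the alpha beta T cell receptor, in none. Prf1, the pore-forming protein perforin, was found in 4, 4, 4 and 9 cells. Gzma was found in 6 of 6, 3 of 5, 4 of 4 and 5 of 11 cells. Eomes, a transcription factor of NK cells, was found in 5 of 6, 2 of 5, 3 of 4 and 1 of 11. Il7r, which marks innate lymphoid cells more than mature NK cells, was found in 4 of 11 cells of aged Tfeb fl/fl KAP and in none of the other libraries.

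Tfeb itself was at the limit of detection in lymphocytes. Supported T cells had 0, 0, 1 and 0 UMIs of Tfeb and supported B cells 0, 1, 4 and 2. Its relative Tfe3 had 0, 1, 0 and 0 UMIs in T cells and 1, 3, 3 and 2 in B cells. A difference between genotypes was not detectable at this depth.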

How the data were processed

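Single-cell 3′ libraries were aligned and counted by the authors with Cell Ranger 6.0.0 (build mm10 per the labels) and corrected for background RNA with SoupX, and the deposited values are whole-number UMI counts per gene symbol and barcode, analysed by the study in Seurat 4.4.0. Stored entries that held no UMI made up 2.90, 12.5, 9.41 and 12.9% of all stored entries, with the lowest share in young Tfeb fl/fl. Whether the background correction acted differently on the libraries was not tested. Its part in tubule transcripts and in genes without a UMI in a library was not tested either. Groups were taken from the labels. The members and gene lists were chosen with earlier results of these data known, so counts over a list are a description. Counts were summed per type and library, scaled to CPM, and compared as log2 ratios with exact conditional binomial 95% intervals, and shares were given Clopper-Pearson intervals. With 1 library per condition, no test was run, and the study's test over cells was not repeated. Named genes were those of fixed lists and, among genes with at least 100 CPM and 30 UMIs over the 4 libraries, up to 10 in each direction at least 2-fold apart in both pairs, without genes of the rule. The procedure was tested on simulated counts, where the intervals held the true ratio for 96.2% of genes in T cells and 97.2% in B cells. The counts were drawn independently for each gene, as the intervals assume. UMIs gathered in single cells were left out, so this cannot show how the intervals do with them. Doublets were scored with Scrublet (scanpy 1.11.5) and kept. Intervals came from scipy 1.17.1 in Python 3.11.15 and figures from matplotlib 3.10.9. Alternatives covered filters, marker thresholds, thinning to 1000 UMIs, scaling, denominators and supported cells. Results for a few genes are not reported here.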

Additional observations from a re-analysis of the deposited data

Results flagged for a closer look

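Gene lists whose tested genes went mostly one way in one pair of libraries and mostly the other way in the other pair are given here. Each pair has 1 library per condition, and none of these differences was tested. In supported B cells with age, immediate early genes had a median log2 ratio of 0.43 in Tfeb fl/fl and -0.49 in Tfeb fl/fl KAP, lysosomal genes 0.28 and -0.46, and genes of naive and circulating lymphocytes -1.02 and 0.26. Between genotypes, the genes of naive and circulating lymphocytes in B cells had a median of 0.51 at 24 months and -0.89 at 6 weeks. Mitochondrial genes had medians of 0.70 and -0.52 in B cells and of 0.36 and -0.11 in T cells in the same order. With all T-gated cells the T cell medians ran the other way, -0.06 at 24 months and 0.53 at 6 weeks. The lysosomal values rest on 5 and 4 tested genes and those of naive and circulating lymphocytes on 4.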

How the results depend on the processing

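No paired analysis was possible because each condition has 1 library. The share ratios moved beyond counting error with the denominator of Ptprc barcodes (1.05 for age in Tfeb fl/fl and -0.26 in Tfeb fl/fl KAP) and without the Ptprc condition (-0.28 for age in Tfeb fl/fl KAP). The other 41 values of these ratios under the alternatives were kept. The make-up moved with an 80% share of marker UMIs for a type (T cells 22.0% in young Tfeb fl/fl, 11.7% in aged Tfeb fl/fl and 25.0% in aged Tfeb fl/fl KAP) and without Ptprc (B cells 64.9% in young Tfeb fl/fl, and T cells 27.3% and B cells 68.8% in young Tfeb fl/fl KAP).

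Counts of genes at least 2-fold apart in all members were 117 higher and 117 lower for T cells with age in Tfeb fl/fl KAP and 94 and 191 for T cells by genotype at 24 months. For B cells they were 87 and 169 with age in Tfeb fl/fl, 72 and 153 with age in Tfeb fl/fl KAP, 153 and 70 by genotype at 24 months and 108 and 38 at 6 weeks. With CPM averaged over cells, T cells by genotype at 24 months had 55 higher, and B cells, in that order, 103 lower, 98 lower, 73 higher and 58 lower. With totals without mitochondrial, ribosomal, immunoglobulin, haemoglobin and tubule genes, B cells had 172 higher with age in Tfeb fl/fl, and 123 and 63 lower by genotype. Thinned to 1000 UMIs, T cells had 8 higher and 29 lower, and 15 and 23, and B cells 11 and 16, 6 and 17, 7 and 11, and 12 and 6, where the shallower counts leave fewer genes to test. With at least 3 marker UMIs, B cells had 249 lower with age in Tfeb fl/fl KAP, 182 lower by genotype at 24 months, and 210 higher and 202 lower at 6 weeks. With doublets removed, B cells had 156 higher with age in Tfeb fl/fl. Supported cells gave 18 and 101 for T cells by genotype at 24 months and, for B cells, 53 and 31, 15 and 27, 13 and 44, and 22 and 17.

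The median of mitochondrial genes in T cells by genotype at 6 weeks reversed to -0.17 with CPM averaged over cells, -0.26 when thinned, -1.83 with at most 20% mitochondrial UMIs and -0.11 in supported cells, and with age in Tfeb fl/fl KAP to 0.57 with at most 20% and 0.55 with no UMI of the excluding genes. Trdc reversed to 0.79 with age in Tfeb fl/fl KAP when thinned, and Ccl4 in B cells by genotype at 6 weeks to -3.75 with at least 3 marker UMIs and -4.29 with doublets removed. The cause was not tested for those without a reason given. Of the named genes, 567 values kept and 85 moved. A change of sign in a named gene was counted as reversed only where all members were at least 2-fold apart. Smaller ratios that changed sign were counted as moved or kept. An example is Egr1 in T cells with age in Tfeb fl/fl KAP, at 0.79 with a range from -1.65 to 1.01. With Gzma counted among the NK genes, the cells left out were 2, 1, 6 and 0 supported T cells, which by construction left 0, 0, 4 and 0 Gzma UMIs, and the log2 ratio of Gzmb was -0.80 at 24 months and that of Klrk1 -1.41 at 6 weeks, both with intervals that include 0. In the T cells, Il7r, Ccr7 and S1pr1 were higher and Gzmb, Klrk1, Klre1 and Klrc1 lower in Tfeb fl/fl KAP at both ages under every alternative run. Comparisons of T cells with young Tfeb fl/fl below 20 cells were not run at the planned minimum. Nor was that of supported T cells with age in Tfeb fl/fl KAP (24 and 18 cells). Those with at least 1000 genes per cell were also not run for T cells and for B cells of young Tfeb fl/fl. Depth limits all single genes, since 14 to 38 T cells and 20 to 31 B cells stand behind each value.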

Other observations

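Smaller lists in supported T cells that the report did not describe went as follows. Heat shock genes, chaperones of protein folding, were higher with age in 4 of 4 tested in Tfeb fl/fl (median log2 ratio 0.87) and in 3 of 4 in Tfeb fl/fl KAP (0.33), where 52.6 and 42.5% of all genes tested were higher, with medians of 0.04 and -0.09. Interferon-response genes were higher in 4 of 4 in aged Tfeb fl/fl (0.77) beside the same 52.6%, and 2 were tested in Tfeb fl/fl KAP, of which 1 was higher. MHC class I genes were lower in Tfeb fl/fl KAP in 6 of 6 at 24 months (median -0.62, beside 61.9% of all genes tested lower and a median of -0.16) and in 4 of 4 at 6 weeks (-0.37, beside 47.4% and 0.03).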
